A study of Mus musculus with 9 samples.

Results

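The immunoproteasome and the class I peptide-loading machinery were followed in splenic dendritic cells (DCs) of mice with T-cell acute lymphoblastic leukemia (T-ALL) and of healthy mice. The set held the 10 genes Psmb8, Psmb9, Psmb10, Psme1, Psme2, Tap1, Tap2, Tapbp, Tapbpl and Nlrc5, which were taken by gene name from the 54532 rows of the deposited expression table. All 10 were found, and all 10 were among the 12746 genes with at least 1 FPKM (read counts scaled by gene length and by library size) in at least 3 of the 9 samples.

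The 3 groups of DCs were sequenced as bulk RNA, with n = 3 samples per group. N-mDCs were mature conventional DCs sorted from the spleens of normal mice. T-DCs, which the labels call immature, were CD11c+ cells with low surface MHC class II (MHCII) from the spleens of leukemic mice, and T-mDCs were the mature conventional DCs of leukemic spleens. The labels list no treatment for any sample. The leukemia model carries the Notch1 intracellular domain together with GFP from a retrovirus, and GFP+ leukemia cells were passed into C57BL/6J or C57B6.SJL recipients that were not irradiated, so the DCs of the spleen were those of the host. The mice were young females, and the leukemic spleens were taken at a late stage of the disease. Red cells were lysed, CD11c+ cells were enriched with beads, and DCs were sorted by flow cytometry with gates against GFP and lymphocyte surface markers for the T-DCs. Neither the labels nor the methods say whether the 3 samples of a group were separate mice or pools, so the p-values measure only the spread between these samples.

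Class I molecules present peptides that are cut from cytosolic and nuclear proteins. The proteasome makes most of these peptides, and in DCs and in cells exposed to interferon gamma its 3 catalytic subunits Psmb5, Psmb6 and Psmb7 are exchanged for Psmb8, Psmb9 and Psmb10, which gives the immunoproteasome. Psme1 and Psme2 form the PA28 cap that opens the proteasome. Tap1 and Tap2 form the transporter that carries peptides into the endoplasmic reticulum, where tapasin, encoded by Tapbp, bridges the transporter to empty class I molecules and helps to select peptides. The tapasin-related protein TAPBPR, encoded by Tapbpl, edits peptides outside that complex. NLRC5 is the transactivator of class I genes and of several genes of this pathway, as CIITA is for MHCII genes.

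Between 15360815 and 18440913 reads fell on genes in each sample, and the 10 genes held from 349 to 10382 reads per sample. The cells fitted their labels in part. All 10 markers of conventional DCs were at 1 FPKM or more in every sample. Their summed level, however, was 632 to 2360 FPKM in T-DCs, 13434 to 19997 FPKM among N-mDCs and 9182 to 12706 FPKM in T-mDCs. Most of each sum came from Cd74 and H2-Ab1, genes of the MHCII pathway, so the sums partly restate the sort for low MHCII. Cd74 was at 326 to 1143 FPKM in T-DCs, 8706 to 13338 FPKM among N-mDCs and 6167 to 8328 FPKM in T-mDCs. H2-Ab1 was at 121 to 512, 4087 to 5936 and 2301 to 3586 FPKM in the same order. Flt3 was at 44.4 to 78.8 FPKM among N-mDCs, 62.9 to 89.1 FPKM in T-mDCs and 4.48 to 15.4 FPKM in T-DCs. Sirpa alone of the 10 overlapped between T-DCs and the mature groups, at 404, 177 and 100 FPKM in T-DCs. It was at 195 to 244 FPKM among N-mDCs and 124 to 230 FPKM in T-mDCs. Itgax was at 152, 90.4 and 43.0 FPKM in T-DCs and at 158 to 230 FPKM in the mature groups, so T-DC sample 1 came near them. Hemoglobin genes took 3.82% and 3.0% of the reads of T-DC samples 2 and 3, against 0.0422% in T-DC sample 1 and at most 0.405% in the other groups. The summed level of 6 neutrophil markers was 2771 and 923 FPKM in T-DC samples 2 and 3, 12.6 FPKM in T-DC sample 1, 64.4 to 646 FPKM among N-mDCs and 4.76 to 11 FPKM in T-mDCs. The summed level of 8 macrophage markers was 3924, 1436 and 847 FPKM in T-DC samples 1, 2 and 3. It was 2313 to 4608 FPKM among N-mDCs and 534 to 1755 FPKM in T-mDCs. The summed lymphocyte markers of each T-DC sample lay below those of every N-mDC sample, as did the 10 genes. The summed level of 5 NK cell markers was 0.839 to 14.3 FPKM in T-DCs, 34.9 to 106 FPKM among N-mDCs and 1.08 to 2.19 FPKM in T-mDCs. That of 5 B cell markers was 31.2 to 88.7 FPKM in T-DCs, 207 to 283 FPKM among N-mDCs and 49.4 to 179.6 FPKM in T-mDCs, and that of 8 T cell markers was 13.7 to 33.5, 75.7 to 86.4 and 18.4 to 21.5 FPKM in the same order. Cd4 held 60.0 of the 75.7 FPKM in N-mDC sample 1 and 3.09 of the 33.5 FPKM in T-DC sample 2. Single T cell markers did not all follow the sum. In T-DC sample 2, Cd3d, Cd3g and Notch1 were at 5.94, 3.06 and 4.57 FPKM, above every N-mDC sample (up to 4.38, 2.46 and 3.49 FPKM). Cd3e, Lck and Trac of that sample lay within the N-mDC range, and Cd4 and Cd8b1 below it. The part of other cell types in the results was not tested. T-mDC samples 2 and 3 differed from each other far less than other samples of a group, with a chi-square per gene of 1.80 at the lowest read counts compared, against 5.45 or more in every other pair within a group. At the highest read counts compared it was 3.72, against 111 or more. Chi-square values above 1 show a difference beyond read sampling, so both were kept as samples, although this does not show that they came from separate mice. Counts with their mean as 1 sample are given beside the main counts.

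Of the 10 genes, 4 stand side by side in the MHCII region of chromosome 17 (build GRCm38, mm10), in the order Psmb9 (34181988-34187764, minus strand), Tap1 (34187553-34197225, plus strand), Psmb8 (34197721-34201454, plus strand) and Tap2 (34203527-34216321, plus strand). Tapbp (33915899-33929288, plus strand) lies on the same chromosome outside this region. Psme1 (55578123-55581529, plus strand) and Psme2 (55587441-55591113, minus strand) are neighbours on chromosome 14, and Psmb10 (105935735-105938444, minus strand) and Nlrc5 (94434356-94527272, plus strand) are on chromosome 8. Tapbpl (125223933-125231860, minus strand) is on chromosome 6. Psmb9 and Tap1 overlap by 212 bases on opposite strands, and whether the counting used strand is not given in the sources used here, so reads in that stretch cannot be told apart. Tapbp shares 3421 bases with Zbtb22 on the same strand, at a mean of 18.4 FPKM, and Tapbpl lies within Vamp1 on the opposite strand, at a mean of 1.96 FPKM.

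Psmb9 and Tap1 are read away from a common stretch. In RefSeq (GRCm38.p6) the start site of Psmb9 is at 34187330 and that of Tap1 at 34187556, with 225 bases between them. RefSeq promoter windows of 250 bases before the start site were matched for 7 of the 10 genes in 8 windows, and were searched on both strands for 5 letter patterns: an interferon regulatory factor core (GAAANNGAA), a GAS element (TTCNNNGAA), a kappaB pattern (GGANTTTCC), the CCAAT box and a CRE core (TGACG). These patterns occur in 7.13%, 7.02%, 1.07%, 33.8% and 17.8% of all 32851 windows. Of the 8 windows, 0 held the interferon regulatory factor core, 0 the kappaB pattern, 1 the GAS element, 3 the CCAAT box and 4 the CRE core. Some windows overlap, so these are counts of windows and not of separate sites. The CCAAT matches of Psmb9 and Tap1 are the same site, as are their CRE matches, and both Psme2 windows hold the same CRE match. The stretches shown are those of the 4 genes with the CRE core or the GAS element, with the match in capitals. The Tap1 and Psmb9 lines are the same site read from either strand, and GENCODE places it in the untranslated first exon of a longer Psmb9 transcript. The Psmb8 match lies in the untranslated first exon of a Psmb8 transcript that starts further upstream.
Tap1, CRE core, 86 bases before the start, chr17:34187458-34187486, plus strand: cccagagacaggTGACGacagagggtcct
Psmb9, CRE core, 144 bases before the start, chr17:34187458-34187486, minus strand: aggaccctctgtCGTCAcctgtctctggg
Psmb8, GAS element, 97 bases before the start, chr17:34198088-34198116, plus strand: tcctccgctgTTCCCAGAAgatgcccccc
Psme2, CRE core, 159 or 239 bases before its listed starts, chr14:55591244-55591271, minus strand: cctcagtctagCGTCAtggaaccccacc
A match to these letters is a description of the window and not evidence of a binding site.

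In T-DCs, all 10 genes had a negative log2 fold change against N-mDCs and against T-mDCs, and 8 of the 10 were called lower in each comparison. Tests were made with limma on log2(FPKM + 1), with Benjamini-Hochberg adjustment over all 12746 genes and a threshold of 0.05 on the adjusted p. Psmb10 and Tapbp passed the threshold in neither comparison. Against N-mDCs, 10.3% of all genes tested were called lower, and against T-mDCs 8.79% were. The median log2 fold change of the 10 genes was -1.11 against N-mDCs, where the median of all genes was 0.05, and -1.13 against T-mDCs, where that of all genes was 0.07. Every T-DC sample was below every N-mDC sample for 10 of the 10 genes, a pattern held by 16.4% of all genes tested, and below every T-mDC sample for 9 of the 10, a pattern held by 18.1% of all genes. Both comparisons use the same T-DC samples, so they are not independent of each other. In bulk RNA, fewer expressing cells and less RNA per cell cannot be told apart.

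The calls depended on the samples. Against N-mDCs, the 8 genes called became 4 when the sample left out was N-mDC 1, T-DC 2 or T-DC 3, and 5 when it was N-mDC 2, N-mDC 3, T-mDC 2 or T-mDC 3, or when T-mDC 2 and T-mDC 3 were averaged. Against T-mDCs they became 4 when T-DC sample 2 was left out, 3 when T-DC sample 3 was, and 1 when T-mDC sample 2 or 3 was or with their mean as 1 sample. The share of all genes called lower moved too, to between 5.87% and 19.0% against N-mDCs and between 3.57% and 16.8% against T-mDCs when 1 sample was left out. The median log2 fold change of the 10 genes stayed between -1.25 and -0.965 in the first comparison and between -1.31 and -0.936 in the second. T-DC sample 1, with 0.0422% hemoglobin reads, was below every N-mDC sample for all 10 genes, by less than 1 FPKM for Psmb10. It also had the highest summed macrophage markers of the T-DC samples, at 3924 FPKM against 1436 and 847 FPKM. With T-DC sample 1 as the only T-DC sample, 1 gene was called against N-mDCs (Psme2) and 2 against T-mDCs (Psme2 and Tap1), in a fit where that lone sample was assumed to vary like the other groups. With the mean log2 level of 8 erythroid markers as a covariate, 1 gene was called against N-mDCs, with 6 at an unadjusted p under 0.05, and 4.74% of all genes were called in either direction. The median log2 fold change of the 10 genes in that fit was -0.974 relative to N-mDCs and -0.79 relative to T-mDCs. Against T-mDCs that limma fit called 0 of the 10, with 3 at an unadjusted p under 0.05, and 0 of all 12746 genes.

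**Figure D1:**
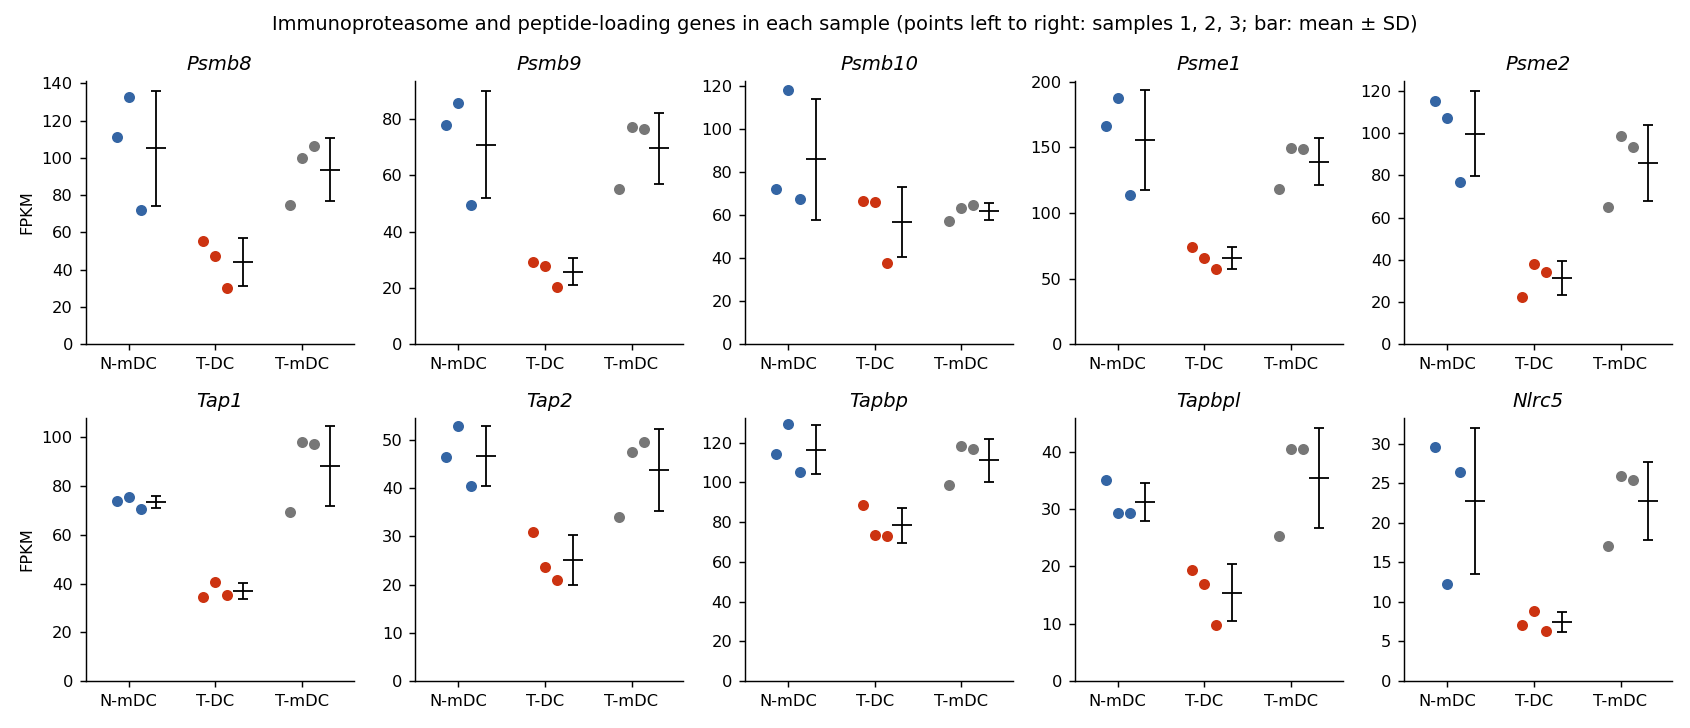
FPKM of the 10 genes in each sample (y axis, from 0) in the 3 groups of DCs; points are samples 1, 2 and 3 from left to right and the bar beside them is the mean ± SD (n = 3). T-DC points lie below all N-mDC points in every panel and below all T-mDC points in every panel but that of Psmb10, where they reach 66.7 FPKM against 57.3 FPKM in the lowest T-mDC sample.

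Psmb8 encodes LMP7, the immune form of the chymotrypsin-like subunit. Its level was 111, 133 and 71.8 FPKM in N-mDC samples 1, 2 and 3, 55.6, 47.2 and 30.3 FPKM in the T-DC samples, and 74.7, 100.1 and 107 FPKM in the T-mDC samples. The T-DC samples were the 3 lowest of the 9. The log2 fold change was -1.22 ± 0.30 (SE) against N-mDCs (limma adjusted p = 0.0290) and -1.09 ± 0.30 against T-mDCs (limma adjusted p = 0.0461). The calls were lost in 6 and 5 of the 9 fits that left out 1 sample, with an adjusted p of up to 0.096 and 0.175. The samples whose absence ended the call were N-mDC 1, T-DC 2, T-DC 3, T-mDC 2 and T-mDC 3 in both comparisons, and N-mDC 2 as well in the first.

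Psmb9 encodes LMP2, the subunit that takes the place of the caspase-like Psmb6. It was at 77.7, 85.6 and 49.3 FPKM among N-mDCs, 29.3, 27.9 and 20.2 FPKM in T-DCs, and 55.1, 77.3 and 76.3 FPKM in T-mDCs. No T-DC sample reached the lowest sample of either mature group. Its log2 fold change was -1.40 ± 0.26 (SE) against N-mDCs (limma adjusted p = 0.0102) and -1.40 ± 0.26 against T-mDCs (limma adjusted p = 0.0113). The call against N-mDCs held in 9 of the 9 fits that left out 1 sample, and that against T-mDCs in 7, with an adjusted p of up to 0.0636 without T-mDC sample 2 or 3.

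Psmb10 encodes MECL-1, which replaces the trypsin-like Psmb7. It was at 72.2, 118 and 67.2 FPKM among N-mDCs, 66.7, 65.8 and 37.9 FPKM in T-DCs, and 57.3, 63.3 and 64.5 FPKM in T-mDCs. The T-DC samples lay below the N-mDC samples by a margin of less than 1 FPKM and overlapped the T-mDC samples, and the T-mDC samples all lay below the N-mDC samples. The log2 fold change of T-DCs was -0.59, with a 95% confidence interval from -1.24 to 0.07, against N-mDCs (limma adjusted p = 0.178). It was -0.16, with an interval from -0.81 to 0.49, against T-mDCs (limma adjusted p = 0.735), and without T-DC sample 3 the log2 fold change was 0.10. Of the 3 immunosubunits, Psmb10 was the member whose level in T-DCs was nearest to that of T-mDCs.

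Psme1 and Psme2 encode the alpha and beta chains of the PA28 ring. Psme1 was at 166, 187 and 114 FPKM among N-mDCs, 74.2, 65.8 and 57.4 FPKM in T-DCs, and 118, 149.6 and 149 FPKM in T-mDCs. Psme2 was at 115, 107 and 77.1 FPKM among N-mDCs, 22.3, 37.8 and 34.1 FPKM in T-DCs, and 65.1, 98.5 and 93.6 FPKM in T-mDCs. For both genes the T-DC samples stood well apart below all others. For Psme1 the log2 fold change was -1.21 ± 0.23 (SE) against N-mDCs (limma adjusted p = 0.0106) and -1.07 ± 0.23 against T-mDCs (limma adjusted p = 0.0191). For Psme2 it was -1.65 ± 0.27 against N-mDCs (limma adjusted p = 0.00606) and -1.43 ± 0.27 against T-mDCs (limma adjusted p = 0.0113). Psme2 was the only one of the 10 genes whose call against N-mDCs held in all 23 alternatives run, with a log2 fold change between -2.09 and -1.37. Against T-mDCs it passed in 19 of 23, and not without T-mDC sample 2 or 3, with their mean as 1 sample or with the erythroid covariate (adjusted p of up to 0.219). Psme1 passed against N-mDCs in 9 of the 9 fits that left out 1 sample, and against T-mDCs in 5, with an adjusted p of up to 0.0969 without T-DC sample 2 or 3 or T-mDC sample 2 or 3. The ratio of Psme2 to Psme1 within a sample was 0.571 to 0.694 in N-mDCs and 0.551 to 0.659 in T-mDCs. In the T-DC samples it was 0.300, 0.574 and 0.594, so the sample with the fewest hemoglobin reads among them had the lowest share of the beta chain.

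Tap1, the first chain of the peptide transporter, varied least of the 10 genes among N-mDC and among T-DC samples relative to its mean. It was at 73.8, 75.5 and 70.8 FPKM among N-mDCs, 34.6, 40.5 and 35.4 FPKM in T-DCs, and 69.3, 98.1 and 97.2 FPKM in T-mDCs. The highest T-DC sample was thus well below the lowest sample of the mature groups. For Tap1 the log2 fold change was -0.98 ± 0.18 (SE) against N-mDCs (limma adjusted p = 0.0103) and -1.22 ± 0.18 against T-mDCs (limma adjusted p = 0.00455). The call held in 9 of the 9 fits that left out 1 sample in both comparisons.

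Tap2, the other chain of the transporter, was at 46.5, 53.0 and 40.5 FPKM among N-mDCs, 31.0, 23.5 and 20.9 FPKM in T-DCs, and 34.1, 47.5 and 49.7 FPKM in T-mDCs. T-DC sample 1 came close to T-mDC sample 1, but the groups did not overlap. Tap2 had a log2 fold change of -0.88 ± 0.22 (SE) against N-mDCs (limma adjusted p = 0.0309) and -0.78 ± 0.22 against T-mDCs (limma adjusted p = 0.0497). Each call held in 2 of the 9 fits that left out 1 sample, those without T-DC sample 1 or T-mDC sample 1. In the other fits the adjusted p reached 0.0989 at most against N-mDCs and 0.201 at most against T-mDCs. The ratio of Tap2 to Tap1 within a sample was 0.895, 0.582 and 0.590 in T-DCs, 0.572 to 0.701 in N-mDCs and 0.484 to 0.511 in T-mDCs.

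Tapbp was at 114, 129.6 and 105 FPKM among N-mDCs, 88.7, 73.5 and 73.0 FPKM in T-DCs, and 98.5, 118 and 117 FPKM in T-mDCs. Its T-DC samples were the 3 lowest of the 9, but the distance was small. Tapbp had a log2 fold change of -0.56, with a 95% confidence interval from -0.96 to -0.17, against N-mDCs (limma adjusted p = 0.0583) and -0.50, from -0.90 to -0.10, against T-mDCs (limma adjusted p = 0.0924). Both values missed the threshold, and both passed it without T-DC sample 1 (adjusted p = 0.0171 and 0.0291). Tapbpl, which edits peptides apart from the loading complex, was at 35.1, 29.3 and 29.3 FPKM among N-mDCs, 19.3, 17 and 9.77 FPKM in T-DCs, and 25.3, 40.5 and 40.5 FPKM in T-mDCs. All T-DC samples were below the mature samples, and T-DC sample 3 was the lowest. Tapbpl had a log2 fold change of -1.02 ± 0.28 (SE) against N-mDCs (limma adjusted p = 0.0412) and -1.17 ± 0.28 against T-mDCs (limma adjusted p = 0.0282). The first call held in 2 of the 9 fits that left out 1 sample, those without T-DC sample 1 or T-mDC sample 1, with an adjusted p of up to 0.127 in the others. The second held in 5, with an adjusted p of up to 0.125 without T-DC sample 2 or 3 or T-mDC sample 2 or 3.

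Nlrc5 was the lowest of the 10 genes in every group. It was at 29.6, 12.2 and 26.5 FPKM among N-mDCs, 7.13, 8.86 and 6.33 FPKM in T-DCs, and 17.1, 25.9 and 25.4 FPKM in T-mDCs. N-mDC sample 2 lay nearer to the T-DC samples than to the other N-mDC samples. Nlrc5 had a log2 fold change of -1.41 ± 0.33 (SE) against N-mDCs (limma adjusted p = 0.0229) and -1.48 ± 0.33 against T-mDCs (limma adjusted p = 0.0211). The first call held in 5 of the 9 fits that left out 1 sample, and not if N-mDC 1, N-mDC 3, T-DC 2 or T-DC 3 was left out (adjusted p of up to 0.082). The second held in 6, and not without T-DC sample 3 or T-mDC sample 2 or 3 (adjusted p of up to 0.0966).

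**Figure D2:**
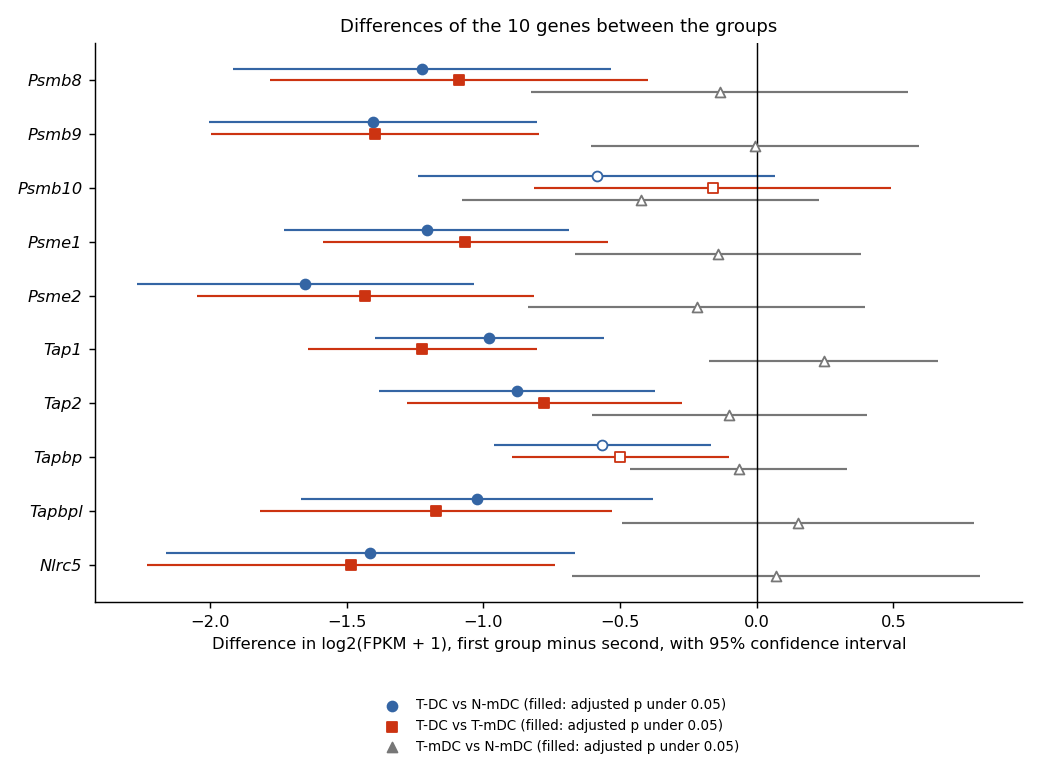
Difference in log2(FPKM + 1) of the 10 genes in 3 comparisons, with 95% confidence intervals from limma; filled points passed an adjusted p of 0.05. All T-DC points lie left of 0, from -0.16 (Psmb10 against T-mDCs) to -1.65 (Psme2 against N-mDCs), while the points for T-mDCs against N-mDCs lie between -0.43 and 0.24, all open.

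Between the mature DCs of leukemic and normal spleens, limma called 0 of the 10 genes in either direction. None of the 10 had an unadjusted p under 0.05, and voom on the recovered reads also called 0. Of all genes, limma called 2.21% and voom 1.4%. The log2 fold changes ran from -0.43 for Psmb10 to 0.24 for Tap1. The interval for Psmb10 was from -1.08 to 0.23 (limma adjusted p = 0.495) and that for Tap1 from -0.17 to 0.66 (limma adjusted p = 0.544), so differences of either sign lie within both intervals at n = 3. Psmb10 was the only gene of the set with all T-mDC samples below all N-mDC samples, which 15.7% of all genes showed. T-mDC sample 1 was the lowest T-mDC sample for all 10 genes, as the plot of FPKM by sample shows.

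The order of levels per length was shared only in part between the groups. Psmb10 was at rank 5 of the 10 in N-mDCs, 3 in T-DCs and 7 in T-mDCs. Psme1 was at the top in both mature groups, with a mean of 156 ± 38.0 FPKM (SD, n = 3) for N-mDCs and of 139 ± 17.97 FPKM for T-mDCs. In T-DCs Tapbp stood at the top at 78.4 ± 8.93 FPKM, followed by Psme1 at 65.8 ± 8.38 FPKM, whose range overlaps those of both, and Psmb10 at 56.8 ± 16.4 FPKM. Tap2, Tapbpl and Nlrc5 were the 3 lowest in every group. Psmb8, Tap1 and Psme2 stood between ranks 3 and 6 in every group, with means of 105, 73.4 and 99.8 FPKM among N-mDCs and of 44.4, 36.8 and 31.4 FPKM in T-DCs. Neighbours in this order mostly overlapped in their sample values, so it is a description of the means.

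Whether the immune subunits fell against the subunits they replace was followed within samples, where the scaling of libraries cancels. Psmb5, Psmb6 and Psmb7, the constitutive catalytic subunits, were called in 0 of 3 cases by limma in each of the 3 comparisons, with 0 at an unadjusted p under 0.05 and 0 by voom. Psmb8 made up 71.4%, 65.3% and 59.8% of the Psmb8 and Psmb5 total in N-mDCs, 41.4%, 49.5% and 32.4% in T-DCs, and 49.0%, 66.6% and 69.4% in T-mDCs. The T-DC samples were below all N-mDC samples, and T-DC sample 2 was just above T-mDC sample 1. Psmb9 made up 62.4%, 57.4% and 55.9% of the Psmb9 and Psmb6 total in N-mDCs, 41.3%, 39.5% and 27.2% in T-DCs, and 58.1%, 62.7% and 62.2% in T-mDCs. Psmb9 thus outweighed Psmb6 in each mature sample and was outweighed by it in each T-DC sample. Psmb10 made up 78.2%, 84.2% and 79.3% of the Psmb10 and Psmb7 total in N-mDCs, 80.0%, 73.7% and 53.4% in T-DCs, and 75.7%, 70.3% and 72.0% in T-mDCs. It stayed the more abundant of the pair in all 9 samples.

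For the PA28 caps, the mean of Psme1 and Psme2 was set against Psme3, which encodes the nuclear PA28 gamma form. It was 76.4%, 81.0% and 71.7% of the total in N-mDCs, 51.5%, 21.3% and 23.5% in T-DCs, and 64.3%, 71.2% and 71.2% in T-mDCs. Psme3 itself was at 45.5 FPKM in T-DC sample 1 and at 192 and 149 FPKM in T-DC samples 2 and 3, those with 3.82% and 3.0% hemoglobin reads, against 34.5 to 50.8 FPKM in the mature samples. The part of erythroid RNA in this ratio was not tested. As log2 ratios, T-DCs differed from N-mDCs by -1.47 for Psmb8 to Psmb5, -1.35 for Psmb9 to Psmb6, -0.84 for Psmb10 to Psmb7 and -2.88 for the PA28 pair. Against T-mDCs the differences were -1.24, -1.49, -0.19 and -2.32. With 3 samples against 3 a two-sided exact permutation test cannot go below p = 0.10. It gave 0.10 for Psmb8 against N-mDCs, for Psmb9 and PA28 in both comparisons, 0.20 for Psmb8 against T-mDCs, and 0.30 and 0.90 for Psmb10. Over the 12 tests, the lowest adjusted p was 0.171, so none passed a threshold of 0.05. Between T-mDCs and N-mDCs the log2 differences were -0.23, 0.14, -0.65 and -0.56, with exact p-values of 0.70, 0.30, 0.10 and 0.10 in the same order.

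**Figure D3:**
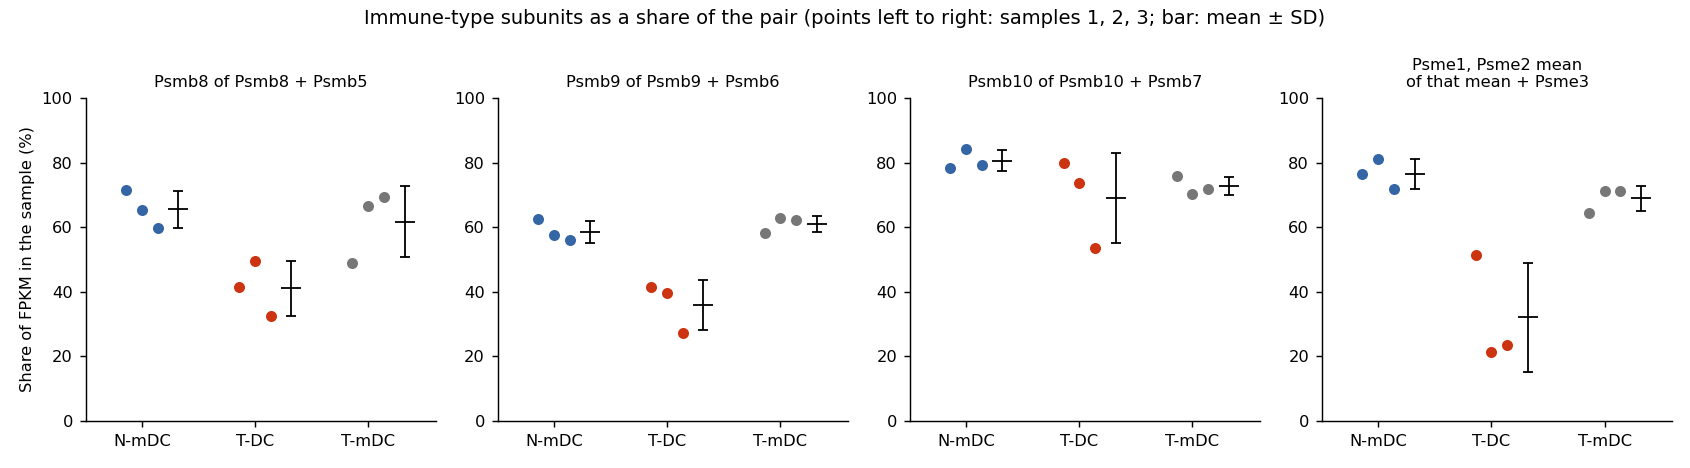
Share of the immune subunit in its sum with the constitutive subunit (percent of FPKM, y axis from 0 to 100) in each sample. In the last panel the mean of Psme1 and Psme2 is set against Psme3, the nuclear PA28 gamma form. The mean ± SD (n = 3) stands beside the points. Psmb9 lies at 27.2% to 41.3% in T-DCs and at 55.9% to 62.7% in the mature groups, while Psmb10 overlaps between T-DCs and both mature groups.

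The genes next to Psmb9, Tap1, Psmb8 and Tap2 on chromosome 17 allowed a comparison with their surroundings. Of the 20 genes tested between H2-K1 and H2-Eb2, the 9 MHCII genes H2-Oa, H2-DMa, H2-DMb2, H2-DMb1, H2-Ob, H2-Ab1, H2-Aa, H2-Eb1 and H2-Eb2 fell in T-DCs, with log2 fold changes from -4.62 to -2.92 against N-mDCs and from -4.30 to -2.44 against T-mDCs. T-DCs were sorted for low MHCII protein, so these values partly restate the sort. The 4 members between H2-DMb1 and H2-Ob fell as well, with log2 fold changes from -1.40 to -0.88 against N-mDCs and from -1.40 to -0.78 against T-mDCs. Directly on one side of them H2-DMb1, a chain of the H2-DM peptide editor, had a log2 fold change of -2.92 ± 0.41 (SE) against N-mDCs (limma adjusted p = 0.00339). On the other side H2-Ob, a chain of the H2-O inhibitor of H2-DM, had one of -3.80 ± 0.39 (limma adjusted p = 0.00106). Relative to T-mDCs the values were -2.60 for H2-DMb1 and -2.58 for H2-Ob (limma adjusted p = 0.0057 and 0.00455). Against N-mDCs the 95% confidence interval of Psmb9 reached down to -2.0 and overlapped that of H2-DMb1, which reached up to -1.98, while no other interval of the 4 members met one of an MHCII gene. Against T-mDCs those of Psmb9, Tap1 and Psmb8 overlapped that of H2-DMa, which reached up to -1.60, and those of Psmb9 and Psmb8 also overlapped those of H2-DMb1 and H2-Ob, which reached up to -1.66 and -1.69. The difference between members and neighbours was not tested. The remaining 7 genes tested in the region, among them Ring1, Rxrb and Brd2, were not called, and H2-Ke6 was below the expression filter.

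**Figure D4:**
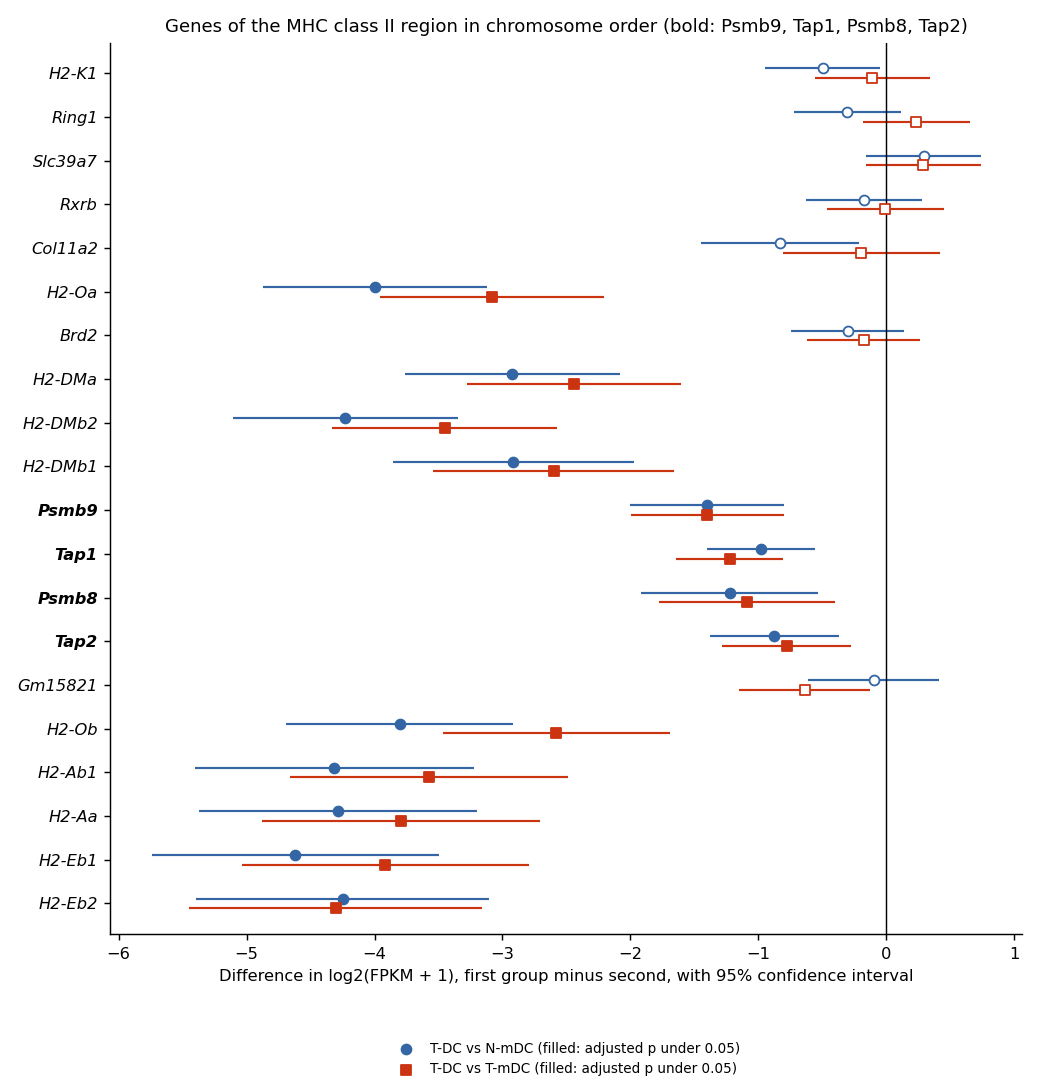
Difference in log2(FPKM + 1) of the 20 genes tested in the MHCII region, in chromosome order from top to bottom and not to scale, with 95% confidence intervals from limma; filled points passed an adjusted p of 0.05. Psmb9, Tap1, Psmb8 and Tap2 (bold) lie between -0.78 and -1.40, nearer to 0 than the MHCII genes on either side.

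Other steps of the class I pathway were read from 41 partner genes, all of which were tested. The 6 class I molecules and chaperones, B2m, H2-K1, H2-D1, Calr, Canx and Pdia3, were called in 0 of 6 cases by limma against N-mDCs, with 2 at an unadjusted p under 0.05 and 0 by voom. Against T-mDCs limma also called 0 of 6, with 1 at an unadjusted p under 0.05 and 0 by voom. B2m, the light chain of class I molecules, was at 3126, 2932 and 3114 FPKM among N-mDCs, 3421, 2844 and 2373 FPKM in T-DCs, and 2834, 2802 and 2755 FPKM in T-mDCs. The groups overlapped. H2-K1, a class I heavy chain, was at 1236 to 1316 FPKM among N-mDCs, 760 to 1127 FPKM over the T-DCs and 941 to 1010 FPKM in T-mDCs, with a log2 fold change of T-DCs against N-mDCs of -0.50 and a 95% confidence interval from -0.95 to -0.05 (limma adjusted p = 0.112). H2-D1 was at 1263 to 1426 FPKM among N-mDCs, 971 to 1742 FPKM over the T-DCs and 922 to 1029 FPKM in T-mDCs. A decrease of the size seen in Psme2 lies outside the interval of B2m against N-mDCs, from -0.56 to 0.35.

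The 8 proteasome assembly factors and caps other than Psme1 and Psme2, with Psme3 among them, were called in 0 of 8 cases by limma in both T-DC comparisons. Of these 8, 3 had an unadjusted p under 0.05 against N-mDCs and 2 against T-mDCs, and voom called 0. Psmf1, which encodes the proteasome inhibitor PI31, was at 26.9 and 23.8 FPKM in T-DC samples 2 and 3 and at 4.46 to 5.86 FPKM in the other 7 samples. Pomp, the maturation factor that favours assembly of the immunoproteasome, was at 19.9 to 22 FPKM in T-DCs, 22.7 to 39.9 FPKM among N-mDCs and 24.3 to 29.9 FPKM in T-mDCs. The 8 cytosolic and endoplasmic reticulum peptidases were called in 0 of 8 cases by limma in both comparisons, with 3 and 2 at an unadjusted p under 0.05 and 0 by voom. Erap1, which trims peptides in the endoplasmic reticulum, was at 14.9, 10.1 and 7.59 FPKM over the T-DCs and at 8.13 to 18.0 FPKM in the mature groups. Without T-DC sample 1, 7 of the 41 partner genes were called higher and 11 lower against N-mDCs, and 6 higher and 11 lower against T-mDCs. In that fit 20.5% of all genes were called higher and 19.0% lower when set against N-mDCs, with 18.3% and 16.8% for T-mDCs, so the share called higher was not above that of all genes.

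Among 16 receptors, kinases and transcription factors that act on these genes, 13 had a negative log2 fold change in each T-DC comparison. Between the mature groups limma called 0 of the 16, with 2 at an unadjusted p under 0.05 and 0 by voom. In T-DCs limma called 5 lower against N-mDCs and 5 lower against T-mDCs. Of all genes, 10.3% and 8.79% were called lower in the T-DC comparisons. These were also the only calls among the 41 partner genes, and the 5 and 5 became 2 and 1 when T-mDC 2 and T-mDC 3 were averaged and 1 and 0 with the erythroid covariate. The median log2 fold change of the 16 was -0.67 in the comparison with N-mDCs and -0.34 in that with T-mDCs. Relb, a subunit of the alternative NF-kappaB pathway, was at 144, 84.0 and 94.7 FPKM among N-mDCs, 19.2, 14.4 and 8.43 FPKM in T-DCs, and 110, 154 and 159 FPKM in T-mDCs. Its log2 fold change was -2.88 ± 0.32 (SE) against N-mDCs (limma adjusted p = 0.00151) and -3.29 ± 0.32 against T-mDCs (limma adjusted p = 0.00143), and passed in 9 of the 9 fits that left out 1 sample in each.

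Irf1, an interferon-induced activator of class I pathway genes, was at 64.8, 75.6 and 83.9 FPKM among N-mDCs, 29.9, 23.6 and 12.6 FPKM in T-DCs, and 29.2, 43.0 and 42.6 FPKM in T-mDCs. T-mDC sample 1 lay within the range of the T-DC samples. The log2 fold change of T-DCs was -1.79 ± 0.31 (SE) against N-mDCs (limma adjusted p = 0.0075) and -0.83 ± 0.31 against T-mDCs (limma adjusted p = 0.111). Stat2, which carries interferon signals to the nucleus, was called against N-mDCs at a log2 value of -1.0 (limma adjusted p = 0.0309), with -0.33 against T-mDCs (limma adjusted p = 0.405). The first call was lost if N-mDC 1, N-mDC 3, T-DC 2, T-mDC 2 or T-mDC 3 was left out (adjusted p of up to 0.0967).

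Jak2, a kinase of the interferon gamma receptor, was at 111, 45.1 and 103 FPKM among N-mDCs, 40.0, 31.9 and 29.4 FPKM in T-DCs, and 95.5, 155 and 155 FPKM in T-mDCs. The log2 fold change was -1.24 ± 0.36 (SE) against N-mDCs (limma adjusted p = 0.0487), a call held in 2 of the 9 fits that left out 1 sample (in the absence of N-mDC sample 2 or of T-DC sample 1) with an adjusted p of up to 0.151 in the others. It was -1.95 ± 0.36 against T-mDCs (limma adjusted p = 0.0105), lost without T-mDC sample 2 or 3 (adjusted p of up to 0.0582). Socs1, a feedback inhibitor of this kinase family, was near the filter of 1 FPKM, at 1.13, 1.64 and 2.90 FPKM in T-DCs. It was at 3.67 to 4.98 FPKM among N-mDCs and 4.24 to 5.96 FPKM in T-mDCs. Socs1 fell in both comparisons, with a log2 fold change of -0.88 relative to N-mDCs and of -1.13 relative to T-mDCs (limma adjusted p = 0.0408 and 0.0196). These calls held in 2 and 6 of the 9 fits that left out 1 sample, the first only without T-DC sample 1 or 3 (adjusted p of up to 0.121 in the others), and the second not without T-DC sample 2 or T-mDC sample 2 or 3 (adjusted p of up to 0.0955).

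Rfx5, a subunit of the factor that NLRC5 and CIITA use at MHC promoters, was at 15.3, 4.76 and 9.81 FPKM among N-mDCs, 5.22, 3.12 and 2.40 FPKM in T-DCs, and 11, 16.7 and 17.1 FPKM in T-mDCs. N-mDC sample 2 lay within the T-DC range, as it lay nearest to it for Nlrc5. Rfx5 fell by 1.82 ± 0.39 (SE) on the log2 scale against T-mDCs (limma adjusted p = 0.0190), a call lost without T-DC sample 2 or 3 or T-mDC sample 2 or 3 (adjusted p of up to 0.0869). Against N-mDCs its log2 fold change was -1.18 (limma adjusted p = 0.0704). Irf8, a DC lineage factor, was at 90.2, 36.4 and 26.3 FPKM over the T-DCs and at 101 to 181 FPKM in the mature groups. Its log2 fold change was -1.87 against T-mDCs (limma adjusted p = 0.0194), a call that failed when T-DC sample 2 or T-mDC sample 2 or 3 was left out (adjusted p of up to 0.087), and -1.34 against N-mDCs (limma adjusted p = 0.0534). The receptor chains Ifngr1 and Ifngr2 were not called (limma adjusted p = 0.483 and 0.517 against N-mDCs). T-DC sample 1 had more of both chains than T-DC samples 2 and 3, with 296 against 116 and 109 FPKM for Ifngr1.

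**Figure D5:**
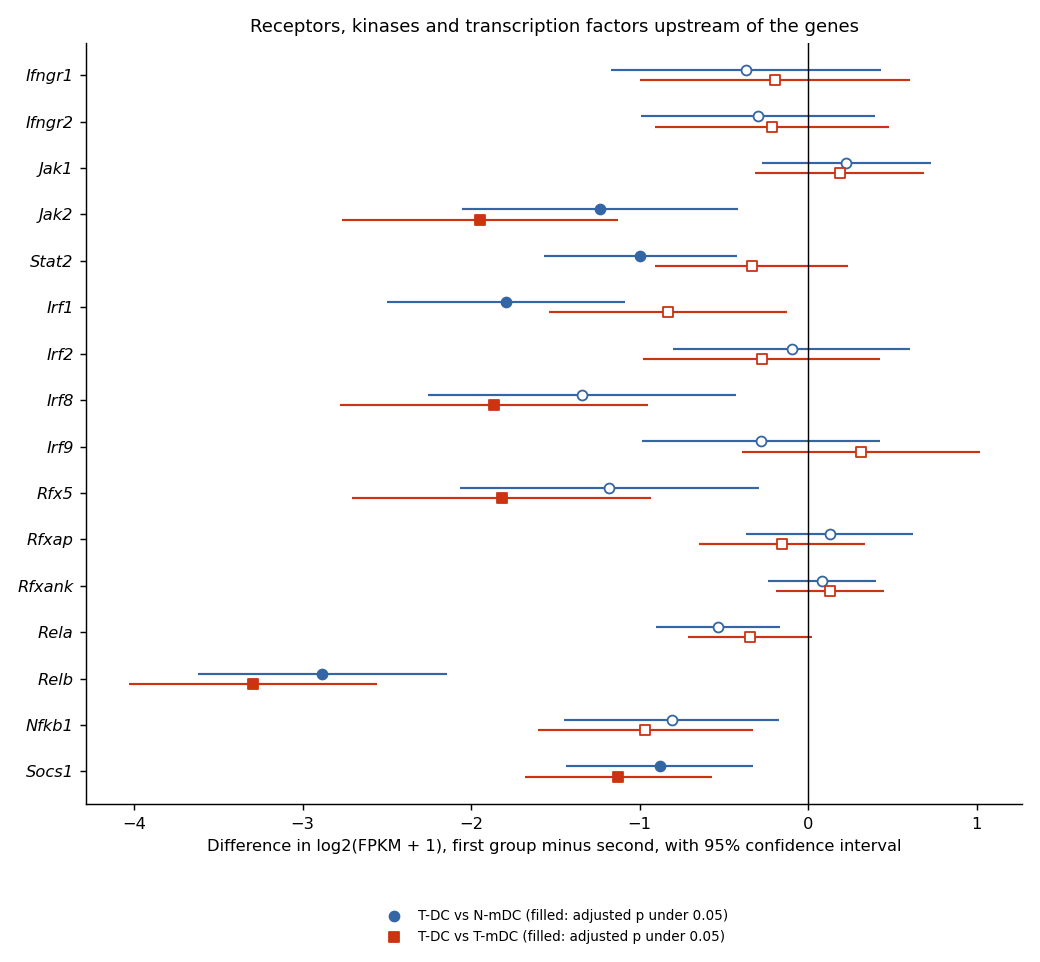
Difference in log2(FPKM + 1) of the 16 receptors, kinases and transcription factors in T-DCs against N-mDCs and T-mDCs, with 95% confidence intervals from limma; filled points passed an adjusted p of 0.05. Relb lies farthest left, at -2.88 and -3.29, and Irf1 and Stat2 are filled only against N-mDCs; whether the 2 comparisons differ for these genes was not tested.

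How alike the 10 genes moved over the 9 samples was described by Pearson's r on log2(FPKM + 1), where the points share libraries and the group differences. Each gene was set against the mean of the other members. The value was 0.99 for Psmb9, 0.98 for Psme1, 0.97 for Psmb8 and Tap2, 0.96 for Tapbp, 0.94 for Tapbpl, 0.92 for Tap1, 0.90 for Psme2, 0.80 for Nlrc5 and 0.60 for Psmb10. Psmb10 and Nlrc5 were thus the members least like the rest, and their r with each other was 0.25. The genes outside the set whose profile was most like the mean of the 10 were Acot7 (r = 0.993), Slc36a3os (0.992), Grap (0.988), Ppp1r11, Gm9530, Map4k1, Tpm2, Gsn, Hspb11 and Ccdc102a (0.985). Acot7, an acyl-CoA thioesterase, had a mean of 36.6 FPKM in normal mature DCs, 10.4 FPKM over the T-DCs and 29.99 FPKM in T-mDCs.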

How the data were processed

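Bulk RNA-seq of 9 sorted DC samples was read from the gene table of FPKM values deposited by the authors. Total RNA was extracted with a column kit and libraries followed standard Illumina protocols. Per the labels, the build was mm10; the aligner, the counter and strandedness are not given in the sources used here. The FPKM values were whole multiples of the value of 1 read in each gene to within 5.59e-05 of a read, and the reads recovered in this way were used for depth and voom. Genes with at least 1 FPKM in at least 3 samples were tested with limma 3.58.1 in R 4.3.3 on log2(FPKM + 1), with all 3 groups in a joint fit, a variance trend and Benjamini-Hochberg adjustment over 12746 genes. Within-sample ratios were tested with two-sided exact permutation tests (scipy 1.17.1). The limma steps were checked on simulated data. The alternatives were another pseudocount, filter, scaling, weighting, sample choice, replicate block, covariate and voom. Genes were named by membership, by the partner lists and by chromosome order in the MHCII region. The 10 genes, the partner lists and the marker lists were chosen with earlier results of these data known. The within-sample ratios of Psme2 to Psme1 and of Tap2 to Tap1, and the examples among partner genes that were not called, were chosen after their values were seen. 1 item of the partner lists is not reported here and was left out of their counts. Sequences are from RefSeq (GRCm38.p6).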

Additional observations from a re-analysis of the deposited data

How the results depend on the processing

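All 10 genes kept a negative log2 fold change against N-mDCs, and 9 kept one against T-mDCs, in 14 alternatives of processing and 9 fits that left out 1 sample; Psmb10 against T-mDCs turned to 0.048 with array weights, 0.111 with T-DC sample 1 alone and between -0.297 and 0.103 when 1 sample was left out. The 8 genes called against N-mDCs became 4 without the filter, 4 with only the groups compared, 5 with the replicate block, 5 with T-mDC samples 2 and 3 averaged, 1 with the erythroid covariate, 1 with T-DC sample 1 alone and 4 to 9 when 1 sample was left out. The 8 called against T-mDCs became, in the same order, 5, 5, 4, 1, 0, 2 and 1 to 9. Between T-mDCs and N-mDCs, 0 became 1 (Tap1) with array weights, a fit in which the weights did not converge and T-DC sample 2 had a weight of 46.6. Whether samples with the same number shared a mouse or a batch is not given. The deviations of same-numbered samples correlated between -0.47 and 0.27, and those of other pairs between -0.36 and 0.43. For T-DCs and T-mDCs, both from leukemic spleens, the same-numbered values were -0.07, -0.12 and 0.02. With n = 3 these values cannot decide whether the samples were paired, and the block is given only here. Rescaling to a common total (TPM) moved the median of all genes from 0.07 to -0.23 for T-DCs against T-mDCs and from 0.03 to 0.24 for T-mDCs against N-mDCs, where the median of the 10 genes became -1.48 and 0.13.

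Partner genes called lower against N-mDCs, 5 in all, became 2 without the filter, 3 with quantile normalization, 2 with only the groups compared, 16 with array weights, 3 with the replicate block, 2 with those samples averaged, 1 with the covariate, 3 with T-DC sample 1 alone and 2 to 11 when 1 sample was left out. The 5 called lower against T-mDCs became 3 with only the groups compared, 19 with array weights, 1 with them averaged, 0 with the covariate, 2 with T-DC sample 1 alone and 1 to 11. The 0 called higher became 12 and 15 with array weights, where 33.9% and 40.7% of all genes were called higher, and 0 to 7 and 0 to 6 when 1 sample was left out. Between the mature groups, 0 lower became 1 with only the groups compared, 5 with array weights and 1 with T-DC sample 1 alone, and 0 higher became 6 with array weights.

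The differences between T-mDCs and N-mDCs that turned sign were never called. With TPM, quantile normalization and array weights, Psmb8 was at 0.081, 0.096 and 0.068, Psmb9 at 0.213, 0.192 and 0.173, Psme1 at 0.076, 0.087 and 0.006, Tap2 at 0.115, 0.028 and 0.085, and Tapbp at 0.152, 0.168 and 0.049. Tapbpl was at -0.093 with the covariate, and Nlrc5 at -0.065 with array weights, -0.022 with T-mDC samples 2 and 3 averaged and -0.146 with the covariate. When 1 sample was left out, Psmb8 ran from -0.385 to 0.052, Psmb9 from -0.243 to 0.152, Psme1 from -0.351 to 0.008, Tap2 from -0.199 to 0.066, Tapbp from -0.135 to 0.018 and Nlrc5 from -0.307 to 0.298. Of the 12 ratio comparisons, 10 kept their sign in every alternative; that of Psmb8 to Psmb5 between the mature groups reached 0.153 without T-mDC sample 1, and that of Psmb10 to Psmb7 between T-DCs and T-mDCs ran from -0.571 to 0.33 when 1 sample was left out. The cause of these changes was not tested. The 10 genes had at least 349 reads per sample.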
